A study of Rattus norvegicus with 15 samples.

Results

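The liver makes bile acids from cholesterol and takes back most of those that return from the gut. The 10 genes described here encode that machinery: the sterol hydroxylases Cyp7a1, Cyp8b1, Cyp27a1 and Cyp7b1, the ring enzymes Hsd3b7 and Akr1d1, the side-chain racemase Amacr, the conjugating enzymes Slc27a5 and Baat, and the sodium-dependent uptake carrier Slc10a1 (NTCP). They were chosen by name alone: every non-control probe that the array files assign to one of them was taken, which gave 13 probes among 41012. Each gene is followed over all 15 rats of a study of the insecticide fipronil.

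The rats were female Wistar Crl:WI animals of 2 to 3 months, weighing 225 to 250 g at the end. Of these, 8 rats took fipronil, a phenylpyrazole insecticide, orally each day at 3 mg/kg for 14 days. Controls were 7 rats given the carrier liquid alone, called the vehicle: methylcellulose at 0.5% (w/v) with Tween 80 at 0.01% (w/v) in water. Lights went on and off in a daily cycle in both groups, and the hour at which livers were taken is not given in the sources used here. Each rat's liver RNA was hybridised to 1 one-colour array, so a replicate is a rat, and the arrays lay on 4 slides that all held both groups.

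As background, the classic route of bile acid synthesis starts in hepatocytes with the 7-alpha hydroxylation of cholesterol by Cyp7a1, its rate-limiting step, whereas the alternative route starts with Cyp27a1 and goes on through Cyp7b1. Bile acids restrain Cyp7a1 through the receptor FXR, its target SHP and gut-derived FGF15, and Cyp7a1 messenger RNA has a daily rhythm. Finished bile acids are joined to taurine or glycine, exported into bile and recovered from portal blood, mainly by Slc10a1.

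Promoter sequences are shown for 3 of the genes: Slc10a1, which had the smallest p of the 10 in the treatment comparison, and Cyp27a1 and Hsd3b7, the pair with the highest correlation from rat to rat. They are RefSeq sequences of assembly GRCr8, from 250 bases before to 50 after the annotated start, and 7 of the 10 genes had such an entry. Capitals mark matches to 6 searched motifs on either strand: the nuclear receptor half-site AGGTCA, the longer CAAGGTCA that contains it and is bound by LRH-1, the HNF4-type CAAAGTCCA, TATAAA, the GC box GGGCGG and CCAAT.
Cyp27a1, chr9:83713282-83713581, plus strand: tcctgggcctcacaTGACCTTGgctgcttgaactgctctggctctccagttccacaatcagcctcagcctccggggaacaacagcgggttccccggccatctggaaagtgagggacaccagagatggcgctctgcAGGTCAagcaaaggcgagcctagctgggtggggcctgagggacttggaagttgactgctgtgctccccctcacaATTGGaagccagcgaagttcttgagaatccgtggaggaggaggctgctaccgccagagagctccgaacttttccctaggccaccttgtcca
Hsd3b7, chr1:191842438-191842737, plus strand: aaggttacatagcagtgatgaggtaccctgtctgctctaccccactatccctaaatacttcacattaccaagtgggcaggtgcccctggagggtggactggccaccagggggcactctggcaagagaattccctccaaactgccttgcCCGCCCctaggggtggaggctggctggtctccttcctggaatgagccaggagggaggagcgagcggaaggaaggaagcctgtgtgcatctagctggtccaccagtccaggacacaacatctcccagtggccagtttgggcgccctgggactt
Slc10a1, chr6:106357895-106358194, minus strand: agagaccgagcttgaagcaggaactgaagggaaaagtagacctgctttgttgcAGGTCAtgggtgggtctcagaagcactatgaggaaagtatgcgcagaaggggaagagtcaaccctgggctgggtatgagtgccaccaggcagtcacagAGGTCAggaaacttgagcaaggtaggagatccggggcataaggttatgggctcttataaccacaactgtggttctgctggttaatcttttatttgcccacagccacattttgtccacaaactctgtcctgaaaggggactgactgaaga
In the Cyp27a1 window, CAAGGTCA began 236 bases before the start on the opposite strand, a further AGGTCA 115 bases before it, and CCAAT 41 bases before it on the opposite strand. The Hsd3b7 window held 1 kind of match, a GC box on the opposite strand 102 bases before the start. The Slc10a1 window held AGGTCA at 197 and at 99 bases before the start. Of 33469 rat promoters of the same length, 16.2% held AGGTCA, 1.52% CAAGGTCA, 0.391% CAAAGTCCA, 14.2% TATAAA, 33.1% GGGCGG and 37.5% CCAAT. These letter matches are a description and not evidence of binding.

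The treatment comparison tested every gene for a difference between the groups. None of the 10 genes passed limma's test at an adjusted p under 0.05, whereas 175 of 20201 features tested did, a share of 0.866% (0.549% higher and 0.317% lower with fipronil). At an unadjusted p under 0.05 there were 3 of the 10 (Slc10a1, Akr1d1 and Slc27a5), against 17.5% of all features. The difference was above 0 for 7 genes and below 0 for 3, with a median of 0.15 on the log2 scale, and the median over all features was -0.026. Signal here is a spot's log2 intensity minus the log2 of the 75th percentile on its own array. With every probe tested as a feature of its own, none of the 13 probes passed limma's test either, against 0.821% of all probes. An unadjusted p under 0.05 was seen for 5, and the share of all probes at that level is not given here. These include both Akr1d1 probes and an Slc27a5 probe that was saturated on 15 of 15 arrays. The values of single rats overlapped between the groups for all 10 genes. The share of all features that overlapped was not counted, so this is a description only. In whole liver, fewer cells of a type and less RNA per cell cannot be told apart.

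**Figure D1:**
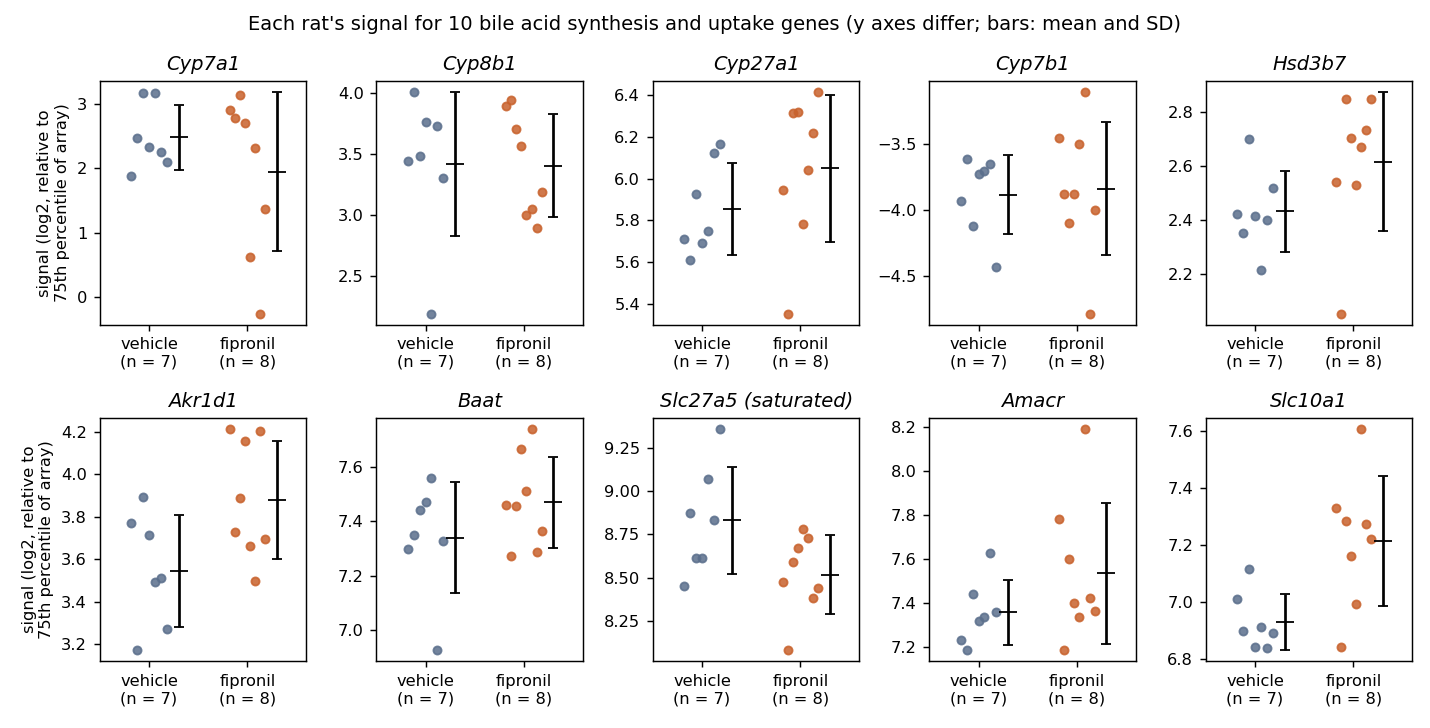
Signal (log2, relative to the 75th percentile of the array) of each rat for the 10 genes, vehicle (n = 7) and fipronil (n = 8), with the mean and SD at the right of each group and a separate y axis per gene. The groups overlap in every panel, Cyp7a1 spreads most among fipronil rats, and the Slc27a5 panel shows a probe that was saturated on 15 of 15 arrays.

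Cyp7a1, the rate-limiting enzyme, had a lowest, median and highest signal of 1.88, 2.34 and 3.18 in vehicle rats. With fipronil these were -0.26, 2.51 and 3.14. The medians therefore lay close together, and 3 of 8 fipronil rats fell below the lowest vehicle rat, with signals of 0.62 (replicate 5), -0.26 (replicate 7) and 1.37 (replicate 8). From lowest to highest, Cyp7a1 spanned 10.6-fold among fipronil rats and 2.46-fold among vehicle rats. Its pooled SD within groups, 0.97, exceeded that of 98.9% of the features tested. The group means were 1.95 ± 1.24 (SD, n = 8) and 2.49 ± 0.51 (SD, n = 7). The fitted log2 difference was -0.54 (SE 0.45, 95% interval -1.50 to 0.43, limma adjusted p = 0.583), an estimate 1.45-fold lower whose interval ran from 2.83-fold lower to 1.34-fold higher.

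The 3 low Cyp7a1 signals lay on slides 3 and 4. On slides 1 and 2 the fipronil rats were higher by 0.67 and 0.17 on average, and on slides 3 and 4 the differences were -1.71 and -1.62. Slide 3 held 1 vehicle rat and each other cell of that layout held 2. Whether the treatment difference itself changed between slides was not tested. Leaving out each rat in turn gave differences from -0.71 to -0.22, the latter without the lowest fipronil rat, and it was -0.96 without slide 1 and -0.20 without slide 4. None of 34 alternatives gave a call.

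**Figure D2:**
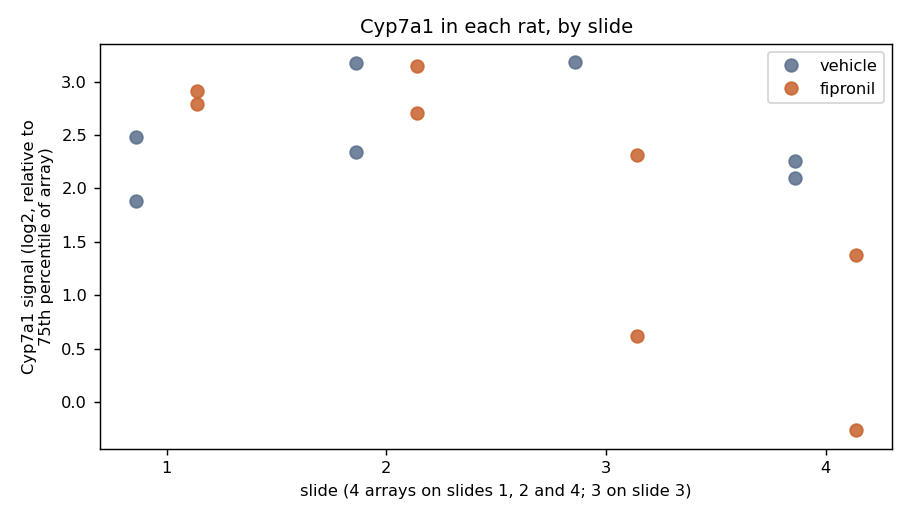
Cyp7a1 signal (log2, relative to the 75th percentile of the array) of each rat, arranged by slide and coloured by group. Fipronil rats on slides 1 and 2 lie among or above the vehicle rats of the same slide, and those on slides 3 and 4 lie below them, at 0.62 and -0.26 for the lowest.

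Cyp8b1, the sterol 12-alpha hydroxylase that directs synthesis to cholic acid, ran from 2.20 through a median of 3.48 to 4.01 in vehicle rats. It ran from 2.90 through 3.38 to 3.95 with fipronil. The fipronil values lay inside the vehicle range, and the log2 difference was -0.013 (SE 0.24, 95% interval -0.52 to 0.50, limma adjusted p = 0.986). The sign of so small a difference turned when arrays were scaled to their median (0.052) and with slide as a block (0.077). Cyp8b1 had the lowest slide p of the 10 genes, with slide means of 3.82, 3.63, 2.75 and 3.28 (limma F test, adjusted p = 0.0669).

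Cyp27a1, the mitochondrial hydroxylase of the side chain and first enzyme of the alternative route, had values of 5.61, 5.75 and 6.17 (lowest, median, highest) with vehicle. The fipronil values were 5.35, 6.13 and 6.41. Fipronil rats lay at both ends of the range, with 4 of 8 above the highest and 1 below the lowest vehicle rat. The log2 difference was 0.19 (SE 0.15, limma adjusted p = 0.534), which did not pass.

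Cyp7b1, the oxysterol 7-alpha hydroxylase of the alternative route, was a dim probe, well above background in 5 of 8 fipronil and 5 of 7 vehicle rats. Its signal was -4.43, -3.72 and -3.61 with vehicle and -4.78, -3.88 and -3.11 with fipronil. The fipronil rats reached beyond the vehicle rats on both sides. The log2 difference was 0.045 (SE 0.20, 95% interval -0.39 to 0.48, limma adjusted p = 0.942), and its sign turned to -0.012 with slide as a block.

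The balance of the hydroxylases was also compared within each rat, where array scaling cancels. On the log2 scale, Cyp8b1 minus Cyp7a1 was 0.93 ± 0.95 (SD, n = 7) in vehicle rats and 1.45 ± 0.92 (SD, n = 8) in fipronil rats. This difference of 0.52 did not pass a two-sided exact permutation test (p = 0.312, adjusted p = 0.312 over 2 ratios), and 5 of 8 fipronil rats exceeded the vehicle mean. Cyp7b1 minus Cyp7a1 differed by 0.58 (exact permutation p = 0.233, adjusted p = 0.312), with 4 of 8 fipronil rats above the vehicle mean. Both ratios contain Cyp7a1 and so share its spread.

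Hsd3b7 acts after the 7-alpha hydroxylases on the ring of the sterol. Its signal was 2.21, 2.41 and 2.70 (lowest, median, highest) with vehicle and 2.05, 2.69 and 2.85 with fipronil. Replicate 2 of the fipronil group stood below every other rat, and 7 of 8 fipronil rats exceeded the vehicle mean. The log2 difference of 0.19 (SE 0.11, limma adjusted p = 0.418) did not pass.

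Akr1d1, the 5-beta reductase that bends the ring system into its bile acid shape, had signals of 3.17, 3.51 and 3.89 with vehicle. With fipronil they were 3.50, 3.81 and 4.22, and 3 of 8 fipronil rats lay above the highest vehicle rat. The log2 difference was 0.34 (SE 0.14, 95% interval 0.05 to 0.63), or 1.26-fold, and positive on all 4 slides. It had a limma p of 0.0262 and an adjusted p of 0.225, and so was no call. A second, dimmer Akr1d1 probe gave 0.46 (SE 0.19, adjusted p = 0.232 over all probes). The probes correlated at r = 0.311 over the 15 rats of both groups. These signals were not centred on the group mean, so the treatment difference of both probes enters r. The brighter one is annotated over 5034 bases of the genome and the dimmer one over 62, both on chromosome 4 of build rn4. When array brightness entered the fit, the difference of the brighter probe was 0.16 (adjusted p = 0.832).

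Amacr, the racemase that readies the side chain for shortening in the peroxisome, had signals of 7.18, 7.34 and 7.63 with vehicle. With fipronil they were 7.19, 7.41 and 8.19. The lowest rats of both groups were level, and the difference was 0.18 (SE 0.13, limma adjusted p = 0.509). A second Amacr probe ran from 5.55 to 6.04 with vehicle and from 5.70 to 6.30 with fipronil, a difference of 0.21 (SE 0.10). Its limma p was 0.0486 before adjustment, and its adjusted p over all probes was 0.288.

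Slc27a5, the bile acyl-CoA synthetase that activates bile acids for conjugation, needs its saturation read first. Its brighter probe was saturated on 15 of 15 arrays, and its unscaled intensity stayed between 71184.6 and 85298.1 on all of them. Relative to the 75th percentile it was 8.45, 8.84 and 9.36 with vehicle and 8.08, 8.53 and 8.78 with fipronil. The resulting log2 difference was -0.31 (SE 0.14, limma adjusted p = 0.249; 0.0347 before adjustment), while the unscaled log2 intensity differed by -0.0038 and the 75th percentile of the arrays by 0.31 in the other direction. The 70 features saturated on all 15 arrays had a median difference of -0.31, with the middle 90% between -0.33 and -0.28. The Slc27a5 probe lay inside that range, and being saturated in both groups it gives no fold change.

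The dimmer Slc27a5 probe was saturated in 4 of 8 rats given fipronil and in 0 of 7 controls. Its signals were 7.87, 8.03 and 8.22 with vehicle and 7.82, 8.09 and 8.23 with fipronil, nearly the same range. The log2 difference was 0.020 (SE 0.081, 95% interval -0.15 to 0.19, adjusted p = 0.933 over all probes). The intensity of its saturated spots is a lower bound. The probes correlated at r = 0.0713 over the 15 rats of both groups, with signals not centred on the group mean.

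**Figure D3:**
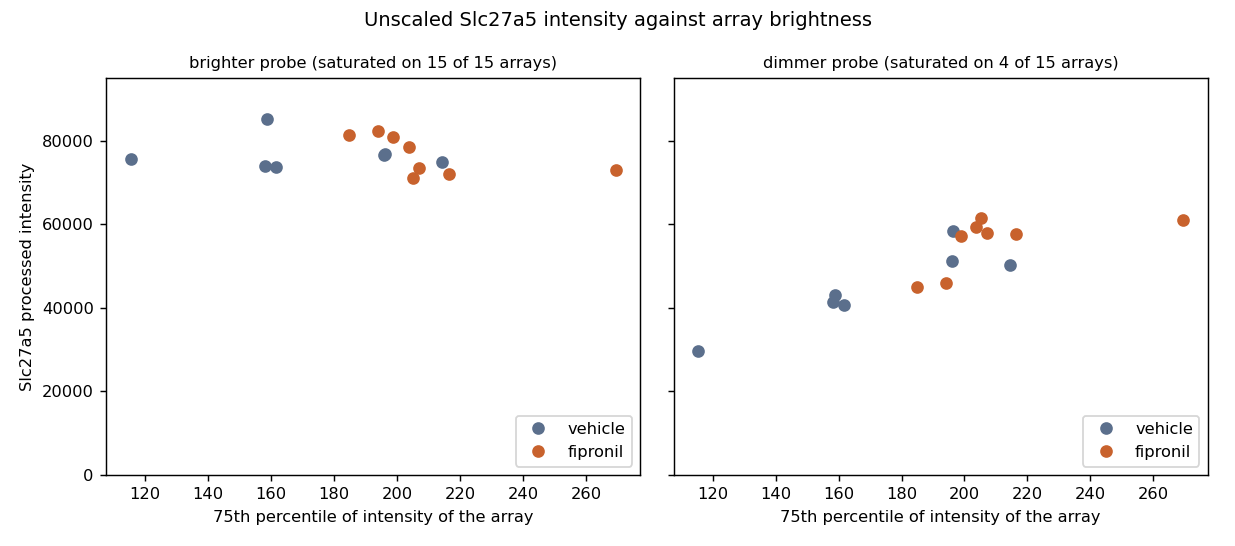
Unscaled processed intensity of the brighter and the dimmer Slc27a5 probe against the 75th percentile of that array's intensity, each point 1 rat. The brighter probe stays between 71184.6 and 85298.1 over the whole range of array brightness, and the dimmer one climbs from 29735 to 61548.7 with it.

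Baat, the amino acid N-acyltransferase that joins taurine or glycine to the activated acid, had signals of 6.93, 7.35 and 7.56 with vehicle. With fipronil they were 7.27, 7.46 and 7.74. One vehicle rat, replicate 6, lay below all the others. The log2 difference was 0.13 (SE 0.10, 95% interval -0.08 to 0.34, limma adjusted p = 0.539), small on every slide, at 0.043, 0.10, 0.067 and 0.20.

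Slc10a1, the sodium-taurocholate cotransporter, gave the smallest p of the 10 genes. Vehicle rats lay close together, at 6.84, 6.90 and 7.11, and fipronil rats at 6.84, 7.25 and 7.61. Of 8 fipronil rats, 6 lay above the highest vehicle rat, while the lowest of each group were level. The means were 7.21 ± 0.23 (SD, n = 8) and 6.93 ± 0.10 (SD, n = 7). The log2 difference of 0.28 (SE 0.10, 95% interval 0.07 to 0.49), or 1.22-fold (1.05 to 1.41), had a limma p of 0.0111 and an adjusted p of 0.168. On slides 1 to 4 it was 0.13, 0.24, 0.39 and 0.38. Over 34 alternatives it stayed between 0.23 and 0.35 with adjusted p from 0.0925 to 0.595, so none called it.

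**Figure D4:**
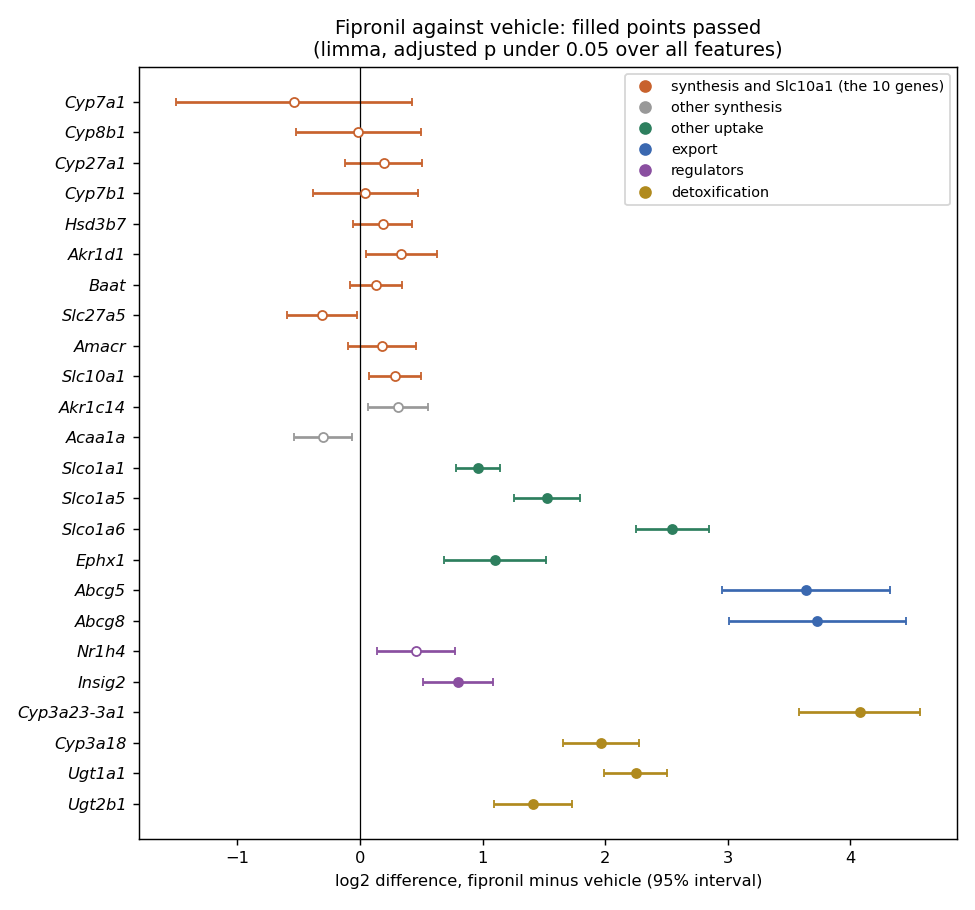
Log2 difference, fipronil minus vehicle, with its 95% interval from limma for the 10 genes and for genes named from the lists of other synthesis, other uptake, export, regulators and detoxification; filled points passed at an adjusted p under 0.05 over all features. The 10 genes lie between -0.54 and 0.34 with open points, and Slco1a6, Abcg5, Abcg8, Ugt1a1 and Cyp3a23-3a1 lie above 2.

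Genes that handle bile acids around these 10 were taken from lists named by function. Of 8 listed uptake genes other than Slc10a1, 7 were tested. Of these, 4 rose and none fell, with a median difference of 0.96. The number called was 5 with the authors' deposited log2 values or the mean of a gene's probes. It was 3 without slide 1, 2 or 4, and when array brightness entered the fit. The organic anion carriers Slco1a6, Slco1a5 and Slco1a1 rose 5.85-fold, 2.88-fold and 1.95-fold (log2 2.55, 1.53 and 0.96), and these related genes may share signal because probe sequences were not searched against each other. Slco1a6 rose by 1.79 on the log2 scale with normexp and quantile normalization. Ephx1, an epoxide hydrolase also described as a bile acid carrier, rose 2.15-fold (limma adjusted p = 0.0129), a log2 difference of 1.10. The call was lost without slide 1, 2 or 4 (adjusted p = 0.106, 0.0641 and 0.118) and when array brightness entered the fit (adjusted p = 0.120), with differences of 1.18, 1.07, 1.05 and 1.10. The carriers Slco1b2 and Slco2b1 and the anion exchanger gene Slc22a7 had differences of 0.11, -0.14 and -0.14 that did not pass.

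Among 11 tested export genes, 2 rose and none fell, with a median of 0.096. These were Abcg5 and Abcg8, which pump sterols rather than bile acids into bile. Abcg5 went from a highest vehicle signal of 2.20 to a lowest fipronil signal of 4.16, without overlap, a log2 difference of 3.64 (SE 0.32, limma adjusted p = 6.93e-06). Abcg8 was well above background in 8 of 8 fipronil rats and in 2 of 7 vehicle rats, so the size of its measured difference, 3.73, rests on a mostly dim vehicle group. With normexp and quantile normalization it was 1.38, still called. The bile salt export pump Abcb11 had a difference of 0.21 (limma adjusted p = 0.381) and the conjugate pumps Abcc2 and Abcc3 had 0.43 (adjusted p = 0.0736) and 1.01 (adjusted p = 0.0964). Abcc2 passed with arrays scaled to their median (0.50, adjusted p = 0.0409), and Abcc3 when vehicle replicate 3 was left out (1.19, adjusted p = 0.0354). Without slide 3, Abcc3 passed as well (1.35, limma adjusted p = 0.0356).

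Among 20 tested regulators, 1 rose and none fell. Insig2, which holds back cholesterol synthesis by retaining SREBP precursors, went from 3.95 ± 0.28 (SD, n = 7) to 4.75 ± 0.26 (SD, n = 8), or 1.74-fold, and the groups did not overlap. Its limma adjusted p was 0.00901, and it did not pass without slide 1 (0.82, adjusted p = 0.118) or when array brightness entered the fit (0.77, adjusted p = 0.109), against a log2 difference of 0.80. The bile acid receptor gene Nr1h4 (FXR) had a difference of 0.46 (limma adjusted p = 0.150) and its target Nr0b2 (SHP) one of -0.14 (adjusted p = 0.831). None of 13 tested clock genes passed limma's test (4 at an unadjusted p under 0.05), the smallest p being that of the rhythmic repressor Bhlhe41 (-1.02, adjusted p = 0.140), followed by Dbp (-0.36, adjusted p = 0.194).

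Of 7 detoxification genes that also act on bile acids, 5 rose and none fell, with a median of 1.97. The weakest of these calls was Cyp3a9 (1.09, limma adjusted p = 0.0494), which passed under 11 of 34 alternatives and not with slide as a block (1.03, adjusted p = 0.0513). Cyp3a2, well above background on 8 arrays, had 2.87 and was no call (limma adjusted p = 0.0526). It passed under 8 of 33 alternatives, slide as a block among them (3.06, adjusted p = 0.0378). With normexp and quantile normalization its difference was 0.61. Cyp3a23-3a1 and Cyp3a18, hydroxylases of drugs and steroids, differed by 4.08 and 1.97 and the glucuronosyltransferases Ugt1a1 and Ugt2b1 by 2.25 and 1.41. The Cyp3a genes are close relatives, and the same limit on shared signal applies. The sulfotransferase Sult2a1 was saturated on every array. None of 13 other synthesis genes passed limma's test (4 at an unadjusted p under 0.05, median -0.065). Akr1c14, the 3-alpha-hydroxysteroid dehydrogenase, had 0.31 (limma adjusted p = 0.193) and Acaa1a, a peroxisomal thiolase, -0.30 (adjusted p = 0.191) with saturation on 14 arrays. Scp2 (-0.37, saturated on 10 arrays) and Slc27a2 (-0.31, saturated on 15) were also at that unadjusted level. With normexp and quantile normalization Acaa1a, Scp2 and Slc27a2 had -0.0084, -0.018 and 0.0014, and Akr1c14 had 0.32.

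None of 11 cholesterol supply genes, 10 periportal and 10 perivenous genes passed limma's test, with 2, 3 and 2 at an unadjusted p under 0.05. The cholesterol esterifying enzyme Soat2 had -0.37 (adjusted p = 0.0992). The periportal genes Aldh1b1 and Hal had -0.53 (adjusted p = 0.0739) and -0.50 (adjusted p = 0.0863), and Hal passed when fipronil replicate 5 was left out (-0.57, adjusted p = 0.0300) or vehicle replicate 3 (-0.56, adjusted p = 0.0499). Without slide 3, Hal passed as well (-0.63, limma adjusted p = 0.0365). The perivenous genes Axin2 and Oat had -0.25 and 0.45.

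Liver identity held: all 10 hepatocyte markers were well above background on every array, and 6 of them were saturated on every array. None of the 10 passed limma's test (5 at an unadjusted p under 0.05). Their differences had a median of -0.28, with 9 below 0 and 1 above. The 70 features saturated on all 15 arrays had a median of -0.31. Of markers of other cells, 0 of 6 endothelial, 0 of 8 Kupffer cell and 0 of 8 cholangiocyte genes passed limma's test (3, 0 and 1 at an unadjusted p under 0.05). Nor did 7 stellate, 4 erythroid and 3 lymphocyte genes (1, 0 and 1). The endothelial list had a median difference of 0.42. Its signal was also summed before the log was taken, so its brightest genes weigh most. The log2 of that sum ran from 6.17 to 7.12 with fipronil and from 5.88 to 6.38 with vehicle. Arrays of fipronil rats were also brighter, with a 75th percentile of 209.9 ± 25.8 (SD, n = 8) against 171.5 ± 33.3 (SD, n = 7; two-sided exact permutation p = 0.0202, adjusted p = 0.0264 over 3 measures). The part of endothelial signal and of brightness in the differences given for the 10 genes was not tested beyond the covariate fits given.

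Whether the 10 genes varied together from rat to rat was examined over their 45 pairs, with signals centred on the group mean. Pearson's r was positive for 29 pairs, with a median of 0.14. The highest was that of Cyp27a1 and Hsd3b7, at r = 0.835 over 15 rats (permutation p = 0.00106, adjusted p = 0.0477 over 45 pairs; Spearman's rho 0.714, adjusted p = 0.225). The pair leaned on fipronil replicate 2, lowest in both genes: r was 0.657 without it (permutation p = 0.0155, adjusted p = 0.325), and 0.609 without fipronil replicates 2 and 8, the 2 rats farthest from the median of Cyp27a1. The adjusted p stayed under 0.05 in 2 of 15 runs that each left out 1 rat. After centring on group and slide r was 0.759 (adjusted p = 0.0537), and it was 0.965 within the fipronil group and 0.423 within the vehicle group. Without any 1 of the other 14 rats, r lay between 0.815 and 0.881.

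**Figure D5:**
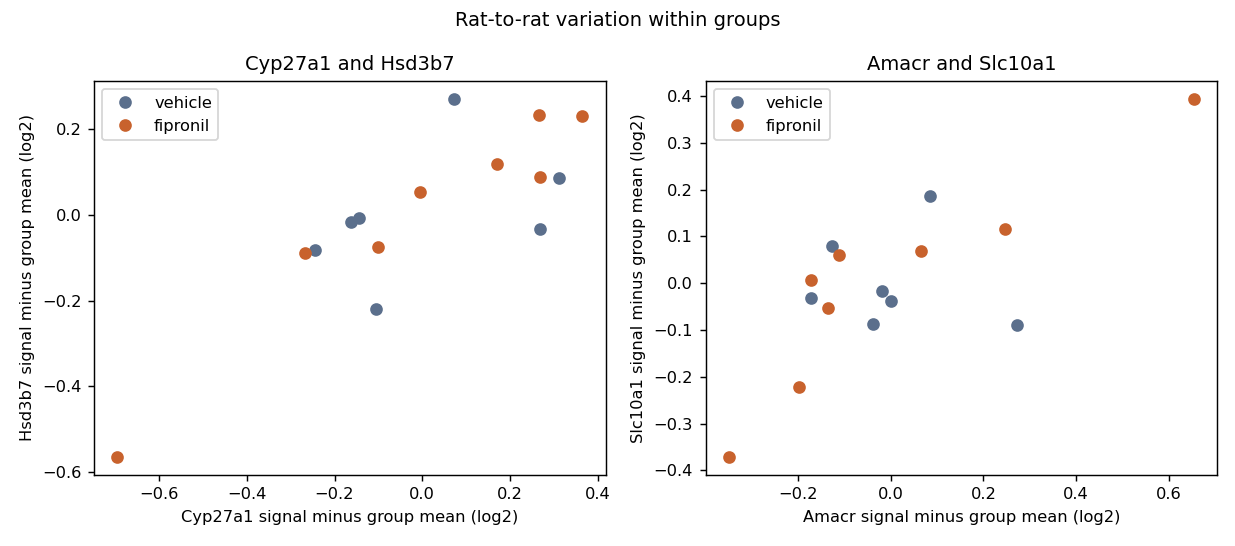
Signals of Cyp27a1 and Hsd3b7, and of Amacr and Slc10a1, each minus the group mean (log2), with 1 point per rat. In the first panel 1 fipronil rat lies far below the others in both genes, and in the second the relation is carried by fipronil rats at both ends.

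Amacr and Slc10a1 followed with r = 0.757 (rho 0.557, permutation p = 0.00634, adjusted p = 0.143 over 45 pairs). Without fipronil replicates 1 and 6, the rats farthest from the median of Amacr, r was 0.421, and within the vehicle group it was -0.11. It was 0.753 after centring on group and slide, and the pair passed without vehicle replicate 6 (r = 0.859, permutation adjusted p = 0.0148). Cyp7a1 and Cyp8b1, successive hydroxylases of the classic route, had r = 0.338 (rho 0.493, permutation p = 0.176, adjusted p = 0.602). That value was -0.016 without fipronil replicates 5 and 7, the rats farthest from the median of Cyp7a1, and had opposite signs in the groups, at 0.838 with fipronil and -0.51 with vehicle.

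As a description of pattern, the features whose signal most resembled that of Cyp7a1 over the 15 rats, among 20117 and after centring on the group mean, were Ndufaf1, a complex I assembly factor (r = 0.941), Eif4ebp1, a repressor of translation initiation (r = 0.843), and Trappc2l, a vesicle tethering subunit (r = 0.841). For Slc10a1 they were Rbm3, a cold-inducible RNA-binding protein (r = 0.891), Ptprb, an endothelial phosphatase (r = 0.885), and Rps4x, a ribosomal protein (r = 0.881). All points of one rat share its array.

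The array files place the probes on build rn4, with Cyp7a1 at chr5:19707410-19707469, Cyp8b1 at chr8:127019903-127019962, Cyp27a1 at chr9:74067772-74067831, Cyp7b1 at chr2:103104072-103104131, Hsd3b7 at chr1:187088099-187088158, Baat at chr5:66245744-66245803 and Slc10a1 at chr6:104735910-104735969. The brighter and dimmer probes lie at chr2:60344148-60344207 and chr2:60343854-60343913 for Amacr, and at chr1:72935145-72935204 and chr1:72934477-72934536 for Slc27a5. Those of Akr1d1 lie at chr4:64996336-65001369 and chr4:65005616-65005677. The exon or transcript end under each probe is not given, since no genome of that build was used.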

How the data were processed

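Arrays were scanned with a GenePix 4000B, and spot intensity was written by Agilent Feature Extraction 9.5.3.1, per the file headers. The deposited processed intensity is background subtracted and not normalized between arrays, and 0 or 1 flags mark saturation, outliers and spots well above background, per the file headers. The submitters' processing notes name Feature Extraction 9.5 and limma. The authors' deposited table of log2 values for 22244 probes served as an alternative.

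Outlier spots were dropped and spots of a probe averaged. Signal is log2 processed intensity minus the log2 75th percentile of the array. The brightest probe stood for a gene. Of 36291 features, 20201 reached well above background on 7 or more arrays and were tested with limma 3.58.1 in R 4.3.3, group as the only term, two-sided, at a Benjamini-Hochberg adjusted p under 0.05 over all features. SE is that of the fit and intervals are at the 95% level. The fit was tested on simulated data. Groups and replicate numbers came from the labels. Replicate numbers were not used to pair rats in the main fit. Same-numbered rats correlated at -0.045 to 0.37, and 3 of 7 matched their own number best. Most same-numbered rats also shared a slide, so these values cannot decide whether the numbers pair rats. Correlations used 100000 permutations within groups.

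Symbols came from the files and RefSeq's GRCr8 table. All 10 genes and their probes were named, with up to 4 passing genes per list or the 2 of smallest p, cell type lists excepted, and 3 features of most similar pattern. Slco1b2, Slco2b1, Slc22a7, Abcb11, Abcc2, Abcc3, Nr0b2, Sult2a1, Cyp3a9, Cyp3a2, Scp2, Slc27a2, Rxra, Cry1 and Cry2 were named besides, after their values were seen. A gene of the cholesterol supply list that the rule names is not reported here. The genes and lists were chosen with earlier results of these data known. Alternatives covered background correction, scaling, filter, probe choice, slide, replicate block, array weights, brightness and single rats. The number of arrays limits precision.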

Additional observations from a re-analysis of the deposited data

Results flagged for a closer look

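Among 20 groups examined (10 genes in each treatment group), 3 held a rat that stood apart from the rest of its group by Dixon's test at the 95% level, where chance gives about 1 in 20. Cyp8b1 was 2.20 in vehicle replicate 5, the lowest of that group. That rat was the only vehicle rat on slide 3, where the Cyp8b1 mean was lowest (2.75). Rat and slide therefore cannot be told apart there. Hsd3b7 was 2.05 in fipronil replicate 2, the rat that was also lowest in Cyp27a1. Baat was 6.93 in vehicle replicate 6.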

How the results depend on the processing

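None of the 10 genes passed under any of the 34 alternatives, leave-one-out included, with fewer for Cyp7b1 (32) and Slc27a5 (33), which had no value under some. The count over all features, 175, was 85 with no filter on dim probes, 303 with slide as a random block, 39 with array brightness as a covariate, 33 without slide 1, 49 without slide 4 and from 86 to 284 when each rat was left out in turn. With the replicate block, the number of the labels as a term, 90 features and 0 of the 10 genes passed. Cyp8b1 was 0.018 there, the same as without fipronil replicate 8, which has no vehicle partner and drops out of that fit. Cyp8b1 was also 0.052 with median scaling, 0.077 with slide as a block, 0.012 with slide as a random block and 0.15 without slide 4, and -0.22 to 0.085 with each rat left out. Cyp7b1 was -0.012 with slide as a block, -0.083 with array weights, -0.10 without slide 3 and -0.059 to 0.18 with each rat left out. Slc27a5 was 0.024 with the brightness covariate. Its difference was -0.018 with quantile normalization, -2.7e-05 with normexp and quantile normalization and -0.00038 with the authors' table. The cause of the other turns was not tested. Of the 45 pairs, the 1 that passed became 0 with normexp and quantile normalization or the authors' table, 2 after centring on group and slide (Hsd3b7 with Slc10a1 and Cyp8b1 with Cyp7b1), and 0 to 2 with each rat left out, an alternative chosen after seeing the data. The pathway lists together gave 11 to 14 calls with each rat left out, against 12. There were 9 with array brightness as a covariate, 9 without slide 1, 10 without slide 4 and 14 with median scaling. Saturation limits Slc27a5 and dim signal limits Cyp7b1.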

Other observations

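Cyp7a1 was compared over the 15 rats, after centring on the group mean, with 33 tested genes of the regulator and clock lists, a comparison chosen after seeing its spread. None passed after adjustment. A permutation p of Pearson's r under 0.05 was seen for 2, a number near that of chance over 33 tests. These were the retinoid X receptor gene Rxra (r = -0.54, rho = -0.63, permutation p = 0.0225, adjusted p = 0.512 over 33 genes) and the clock repressor Cry2 (r = -0.52, rho = -0.51, permutation p = 0.0384, adjusted p = 0.512). The largest correlation was that of Cry1, its relative (r = -0.59, rho = -0.68, permutation p = 0.0595 for r and 0.0143 for rho, adjusted p = 0.512 for r). Without fipronil replicates 5 and 7, the rats farthest from the median of Cyp7a1, r was -0.66 for Rxra, -0.60 for Cry2 and -0.69 for Cry1. After centring on group and slide it was -0.50, -0.46 and -0.42.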
